A study of Mus musculus with 2 samples.

Results

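A set of 332 spleen cells carried a reference label of a dendritic cell while lying in 1 of 2 clusters of the authors' cell table that are rich in mitotic transcripts, DCP and HSC-3. The members were chosen as cells of the spleen library in cluster DCP or HSC-3 whose scMCA label, a match to a mouse cell atlas, contained the words "endritic cell". They were 231 cells of DCP and 101 cells of HSC-3, out of 6546 spleen cells and 16634 cells in all. They made up 5.07% of the spleen cells (exact 95% interval 4.55 to 5.63) and 17.4% of the 1910 spleen cells with a dendritic label (15.7 to 19.2). They are called dividing dendritic-labelled cells below.

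The study profiled LSK cells (sorted as low in or without lineage markers, Sca1+ and high in c-Kit), a gate with blood stem and early progenitor cells, by droplet single-cell RNA sequencing. All cells came from C57BL/6 mice aged 6 to 8 weeks with a liver tumour, made by injecting 750000 Hepa1-6 cells, a mouse hepatoma line, into the left liver lobe. The spleen and the bone marrow of such mice each gave 1 library, and the labels state no genotype other than the strain and no number of mice. No tumour-free mouse was analysed here. The comparison groups were 1413 spleen cells of the authors' cluster MP, 378 bone marrow cells of cluster DCP, and the 388 other spleen cells of clusters DCP and HSC-3; the cell table does not spell out these cluster names. With 1 library per tissue no test was run, intervals (95%) cover counting error only, and tissue, sort and library cannot be told apart between spleen and bone marrow.

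Conventional type 1 dendritic cells (cDC1) take up dead cells and present their antigens to CD8 T cells, and they depend on the transcription factors Batf3 and Irf8. Dendritic cells load peptides on MHC class II, whose genes are switched on by the coactivator Ciita and whose assembly is chaperoned by the invariant chain Cd74. Most dendritic cells of lymphoid organs arise from dividing precursors under the growth factor receptor Flt3, and mitosis itself runs on genes that are transcribed together in G2, among them cyclin B1 and the ubiquitin-conjugating enzyme Ube2c.

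The promoters of 2 mitotic and 2 MHC class II genes that mark these cells are shown, to set the motifs of the 2 programs side by side. Each run of 300 bases is from RefSeq (GRCm38.p6), 250 bases before to 50 after the gene's start, 5′ to 3′ on the gene's strand. Capitals mark CCAAT, the box bound by NF-Y, TTTGAA, the cell cycle homology region (CHR), and GNAACNGAT, the core of the MHC class II X box, all searched on both strands with overlaps allowed.
Ube2c promoter, chr2:164769679-164769978 (+ strand): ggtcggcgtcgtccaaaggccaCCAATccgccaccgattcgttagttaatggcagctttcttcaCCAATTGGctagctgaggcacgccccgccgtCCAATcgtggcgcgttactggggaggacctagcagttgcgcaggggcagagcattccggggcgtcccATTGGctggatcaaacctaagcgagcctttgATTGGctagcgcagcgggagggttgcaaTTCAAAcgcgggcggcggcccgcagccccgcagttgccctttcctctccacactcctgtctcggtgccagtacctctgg
Cenpf promoter, chr1:189688037-189688336 (− strand): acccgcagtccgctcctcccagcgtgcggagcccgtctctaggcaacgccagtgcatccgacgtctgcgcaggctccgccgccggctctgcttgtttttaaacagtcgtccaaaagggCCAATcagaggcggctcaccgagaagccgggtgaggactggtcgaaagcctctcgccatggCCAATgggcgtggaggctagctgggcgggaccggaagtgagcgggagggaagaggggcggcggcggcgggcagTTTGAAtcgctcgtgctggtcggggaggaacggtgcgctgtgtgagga
H2-Aa promoter, chr17:34287774-34288073 (− strand): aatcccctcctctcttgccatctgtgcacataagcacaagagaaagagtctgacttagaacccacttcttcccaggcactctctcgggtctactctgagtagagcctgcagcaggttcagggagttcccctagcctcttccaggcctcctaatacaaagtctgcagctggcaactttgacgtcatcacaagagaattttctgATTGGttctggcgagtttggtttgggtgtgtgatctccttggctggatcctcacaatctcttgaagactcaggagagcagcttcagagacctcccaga
H2-Eb1 promoter, chr17:34305617-34305916 (+ strand): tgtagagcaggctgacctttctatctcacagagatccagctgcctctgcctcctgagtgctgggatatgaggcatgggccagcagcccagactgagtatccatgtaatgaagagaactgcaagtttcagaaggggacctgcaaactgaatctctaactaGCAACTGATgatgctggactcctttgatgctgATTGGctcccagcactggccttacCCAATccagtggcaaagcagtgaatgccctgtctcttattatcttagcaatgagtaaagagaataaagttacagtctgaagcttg

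The Ube2c window held 6 matches to CCAAT and 1 CHR, and the Cenpf window held 2 CCAAT and 1 CHR. The H2-Aa window held 1 CCAAT, no CHR and no match to the X box core. The H2-Eb1 window held 2 CCAAT, no CHR and 1 X box core. Over all 32851 RefSeq promoters of this length (27025 gene symbols), 37.4% held CCAAT, 17.9% the CHR, 6.95% both, and 2.05% the X box core. Of the mitosis and spindle list, 32 of 37 genes matched, with 34 promoters. CCAAT was in 28 of them (82.4%), the CHR in 25 (73.5%) and both in 24 (70.6%). Of the MHC class II list, 10 of 14 genes matched, with 11 promoters, of which 10 (90.9%) held CCAAT, 0 the CHR and 3 (27.3%) the X box core. Of 22 promoters of cDC1 genes, 50.0% held CCAAT and 13.6% the CHR. CCAAT was thus common in both programs and the CHR in the mitotic genes, while a match is letters in a window and not a shown binding site.

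The labels within the set were 282 cells of a dendritic type named for high Cst3 (211 in DCP, 71 in HSC-3), 48 cells of a dividing dendritic type of the lung (20 and 28), and 1 cell each of types named for Fscn1 and S100a4. The authors' second reference called 266 of the cells Mono-3 and 62 IMP2, 2 a T cell, and 1 each HSC-1 and HSC-2. In bone marrow, 0 of 1610 cells of DCP and HSC-3 carried a dendritic label, which allows a share of up to 0.186%. In spleen the share was 76.5% of DCP (71.3 to 81.2) and 24.2% of HSC-3 (20.1 to 28.6). Bone marrow held 68 dendritic-labelled cells among 10088, of which 67 were in MP. The clusters and the labels were both made from these cells' own expression, so the mitotic and dendritic genes below describe the choice of cells.

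Depth differed between the groups. The dividing dendritic-labelled cells had a median of 16891.5 UMIs per cell (1146 to 59464) and 5648584 UMIs in all, against medians of 10725 in spleen MP, 9440 in bone marrow DCP and 14716 in the other spleen dividing cells. Their median was 1.57 times that of MP and 1.79 times that of bone marrow DCP. Mitochondrial UMIs made up a median of 2.80%, 3.24% and 3.19% in these cells, MP and bone marrow DCP. Levels are therefore given as CPM (counts of summed UMIs scaled to 1 common total), and shares of cells after thinning each cell to 4400 UMIs, which kept 330 of 332, 1398 of 1413, 345 of 378 and 386 of 388 cells in the order above. At that depth the median number of genes per cell was 1797 in these cells, 1673.5 in MP and 2025 in bone marrow DCP. Scrublet, a doublet caller, marked 13 of the 332 cells (3.92%), 19 MP cells (1.34%) and 2.84% of the spleen library. Within the set it marked 5 DCP cells (2.16%) and 8 HSC-3 cells (7.92%). It marked 1 of 10088 bone marrow cells and so had not worked there. Of 16 barcodes present in both libraries, 2 were among the 332 cells.

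Markers of other cell types were low. The 7 cDC2 markers summed to 3.19 CPM, with Irf4 and Clec4a4 at 0, against 3.88 CPM in MP. The plasmacytoid markers Siglech and Klk1, the macrophage marker C1qa, the B cell marker Pax5, and the T cell markers Cd3e, Cd3g and Trac had 0 UMIs. The 6 plasmacytoid markers summed to 217 CPM (MP 241), carried by Bst2 at 98.3 CPM and other shared genes, the 7 monocyte or macrophage markers to 154 (MP 151), and the 6 B cell markers to 20.7 (MP 31.2). The 7 T cell markers summed to 25.8 CPM (MP 20.4), with Trbc2 at 12.9 and Trbc1 at 9.91. Without the 5 cells described next, these 2 genes were at 5.09 and 4.18 CPM. The 5 stem cell markers summed to 13.3 CPM, against 22 in MP and 622 in bone marrow DCP, although 101 of the cells lie in a cluster named HSC-3. Csf1r, the macrophage growth factor receptor, was at 1.06 CPM, Sirpa, a cDC2 surface protein, at 0.708 CPM, and Ccr7, the migration receptor of mature dendritic cells, at 1.06 CPM.

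A few cells carried another type's genes. Of 9 marker lists of other types, 5 of the 332 cells held at least 20 UMIs of one. They were a cell of 79 mature dendritic UMIs, with the Fscn1 label, 2 cells of 33 and 50 T cell UMIs, a cell of 102 mast cell UMIs and a cell of 198 erythroid UMIs and 59464 UMIs in all. The erythroid enzyme Car1, at 46.2 CPM, had 184 of its 261 UMIs in that last cell and was at 11.6 CPM without the 5 cells (MP 13.9). The amino acid oxidase Il4i1 had all its 40 UMIs in the Fscn1-labelled cell. Without the 5 cells, 465 genes in place of 469 were at least 2-fold higher than in MP, an alternative chosen after the data were seen.

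**Figure D1:**
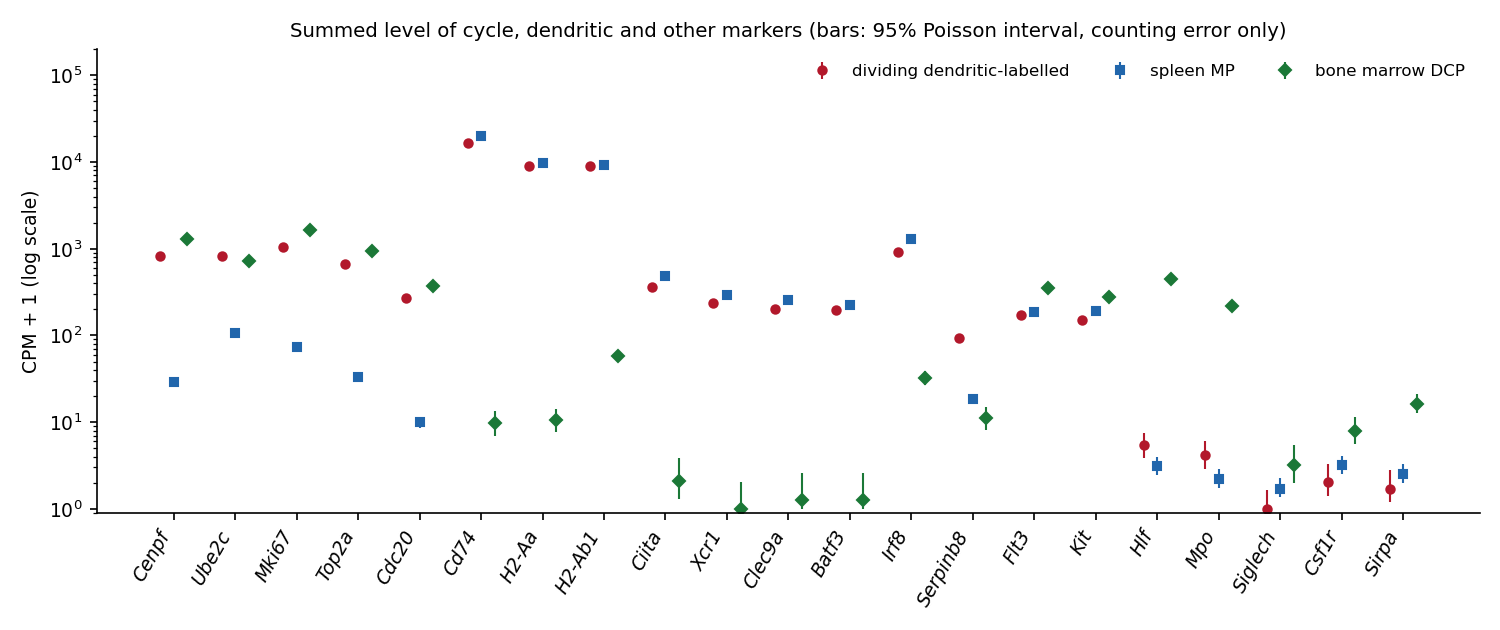
Level of 21 genes in summed UMIs (CPM + 1, log scale) in dividing dendritic-labelled cells (circles), spleen MP (squares) and bone marrow DCP (diamonds), with 95% Poisson intervals for counting error only. Cenpf was at 826, 28.1 and 1284 CPM and Cd74 at 16514, 19966 and 8.69 CPM in that order.

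The cells held mitotic and MHC class II transcripts in the same barcodes. All 330 thinned cells had at least 5 UMIs of the 37 mitosis and spindle genes and at least 5 of the MHC class II genes (100%, 98.9 to 100). Their choice by a cluster rich in mitotic transcripts and a dendritic label largely set this value, so it describes that choice. The share with both was 8.58% in spleen MP (120 of 1398, 7.17 to 10.2), 6.09% in bone marrow DCP (21 of 345, 3.81 to 9.15) and 13.5% in the other spleen dividing cells (52 of 386, 10.2 to 17.3). In spleen MEP cells, whose erythroid markers summed to 3646 CPM and which should lack MHC class II, it was 3.82%. Of those MEP cells, 19 of 889 had at least 50 MHC class II UMIs, and where these came from was not tested. Without thinning, the share was 99.7% in the dividing dendritic-labelled cells, 30.7% in MP, 38.1% in bone marrow DCP and 81.3% in MEP, whose median depth was 36084 UMIs.

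Amounts per cell show the same split. A thinned cell of the set had 11 to 102 mitotic UMIs and 76 to 312 MHC class II UMIs, with medians of 42 and 197. The medians were 1 and 224 in MP, 60 and 2 in bone marrow DCP, and 36 and 2 in the other spleen dividing cells. The MHC class II amount was thus near that of MP and the mitotic amount near that of the other dividing cells within single barcodes. No thinned bone marrow DCP cell had more than 8 MHC class II UMIs, whereas 8 of the 386 other spleen dividing cells had at least 50, under other labels.

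**Figure D2:**
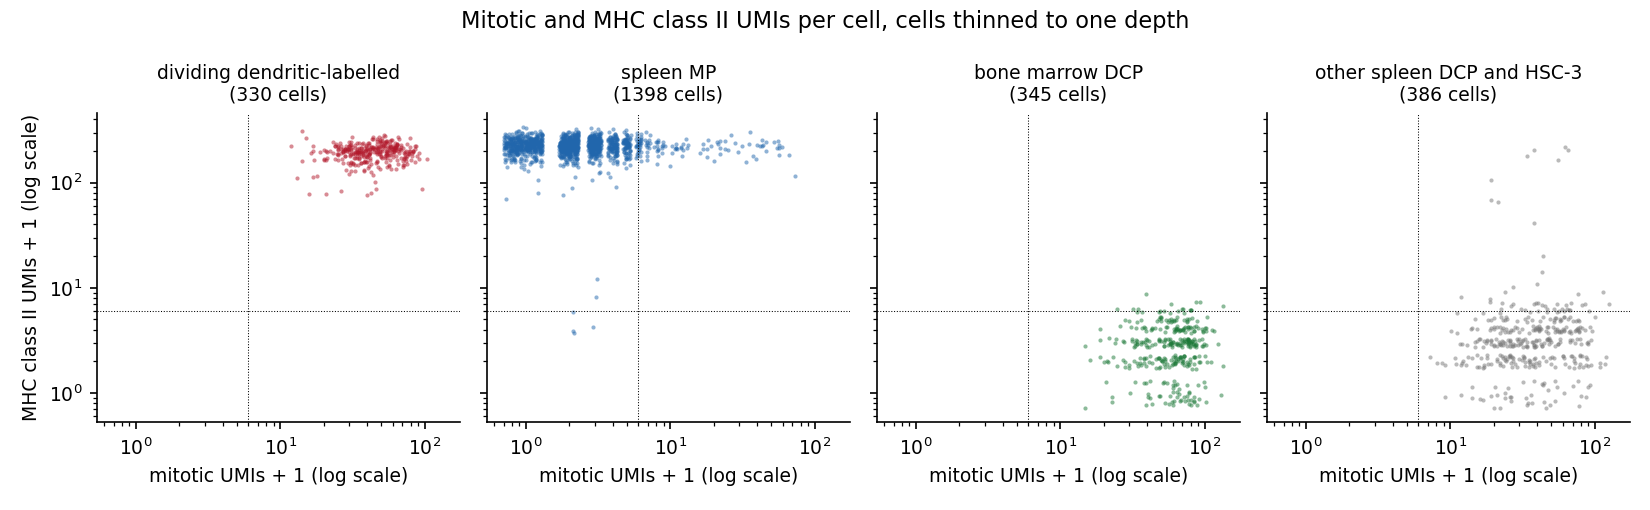
UMIs of the mitosis and spindle list (x, + 1, log scale) and of the MHC class II list (y, + 1, log scale) in each cell thinned to 4400 UMIs, with points jittered slightly and dotted lines at 5 UMIs. All 330 dividing dendritic-labelled cells lie above both lines, as do 120 of 1398 spleen MP, 21 of 345 bone marrow DCP and 52 of 386 other spleen DCP and HSC-3 cells.

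Cells with both programs also occurred outside the 2 dividing clusters. Of the spleen dendritic-labelled cells in cluster HSC-1, 45.5% of 213 thinned cells had both (38.7 to 52.5), with a median of 3 mitotic UMIs. The share was 8.97% of 1293 dendritic-labelled MP cells, 29.6% of all 1891 spleen dendritic-labelled cells, and 34.4% of 64 bone marrow dendritic-labelled cells (22.9 to 47.3).

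Phase calls placed nearly all cells in G2 or M. On thinned cells, scanpy called 329 of 330 G2M (99.7%) and 1 S (0.303%), against 92.3% G1 and 7.44% G2M in MP and 99.7% G2M in bone marrow DCP. The other spleen dividing cells were 13% S and 87.0% G2M. With the DNA replication and mitosis lists used here in place of the standard phase genes, 2.12% of the cells were S and 97.6% G2M, and the S share was 7% in HSC-3. The calls read the same genes as the clusters and add no separate evidence.

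Against spleen MP, the mitosis genes of the dividing dendritic-labelled cells were higher and MHC class II genes were within 1.5-fold. Genes were read where the mean of both sums reached 10 CPM. Of these 7501, 469 (6.25%) were higher by 2-fold or more and 61 (0.813%) lower, on the log2 scale with 1 CPM added. At the 1.5-fold used for list members, 862 genes (11.5%) were higher and 324 (4.32%) lower, and the median log2 ratio of all genes was 0.06. All 37 mitosis and spindle genes were at least 1.5-fold higher, with a median log2 ratio of 3.99. The 12 highest genes over MP were Cenpf, Nusap1, Cdc20, Hmmr, Kif2c, Cep55, Aspm, Nek2, Dlgap5, Cdc25b, Ccna2 and Aurka, from 4.83 down to 4.44 on the log2 scale, all of them genes of the spindle, the kinetochore or mitotic entry.

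Cenpf, a kinetochore protein made in G2, was at 826 CPM (802 to 850) in these cells, 28.1 in MP and 1284 in bone marrow DCP. It was 29.4-fold higher than in MP (26.7 to 32.5), and 80.3% of the thinned cells had a UMI of it against 4.08% of MP. Ube2c, which ubiquitinates cyclin B for destruction, was at 823, 107 and 716 CPM and 7.72-fold higher than in MP (7.29 to 8.17). With Knstrn it had the smallest mitotic ratios, and 26.3% of thinned MP cells had a Ube2c UMI. Cdc20, the activator that directs the anaphase-promoting complex, was at 269, 8.99 and 371 CPM, and Ccnb1, cyclin B1, at 197, 9.24 and 269 CPM. The proliferation marker Mki67 was at 1040, 72.6 and 1631 CPM. Kif2c, a microtubule-depolymerizing motor, was 40.0-fold higher than in MP (27.5 to 60.5), at 75.1 against 1.87 CPM. Each stood far above MP.

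Genes of S phase were also higher than in MP, unevenly. Of the DNA replication list, 22 of 24 measured genes were higher and 0 lower (median log2 1.77). Rrm2, the small subunit of ribonucleotide reductase, was at 39.1 CPM against 1.87, or 20.9-fold higher (14.1 to 31.9). Pcna, the sliding clamp of DNA polymerase, was at 28.7 against 25.9 CPM, a 1.11-fold ratio whose interval spans 1 (0.916 to 1.33). Of the replication-dependent histones, 16 of 18 were higher (median 2.94), led by the linker histone Hist1h1b at 822 against 40.1 CPM, while Hist1h2bc was at 33.5 against 30.6. Summed, the DNA replication list was at 296 CPM in MP, 527 in the DCP cells of the set and 2269 in its HSC-3 cells. The histones were at 577, 724 and 9955 CPM in that order, so their excess lay mostly in the HSC-3 cells. Histone messages of this class mostly lack a poly(A) tail, which this 3′ assay primes on.

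G1 genes split. Of 17 measured, 4 were higher and 4 lower (median 0.14). E2f8, a repressor of E2F targets, was at 36.8 against 2.78 CPM and the CDK4/6 inhibitor Cdkn2d at 107 against 24.2. Ccnd1, cyclin D1, was at 29.6 CPM against 88.4 in MP and 9.82 in bone marrow DCP, 2.99-fold lower than in MP (2.54 to 3.53). Ccnd3 was at 74.2, 82.4 and 97.3 CPM and Ccnd2 at 10.6, 16.7 and 188 CPM. Cdk6, a partner of the D cyclins, was at 48.5, 43.8 and 544 CPM, so both spleen groups stood far below bone marrow DCP in Ccnd2 and Cdk6.

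MHC class II genes were near their MP level. None of 12 measured genes was 1.5-fold away from MP, and the median log2 ratio was −0.27. Cd74 was at 16514 CPM (16408 to 16621) against 19966 in MP, 1.21-fold lower, and had a UMI in 100% of thinned cells and 99.8% of MP. H2-Aa was at 9109 against 9839 CPM, H2-Ab1 at 9076 against 9222 and H2-Eb1 at 6981 against 8899. Ciita was at 363 against 486 CPM, 1.34-fold lower (1.27 to 1.41). H2-DMb1, part of the peptide exchanger, was at 509 against 491 CPM, and the promoter-binding factor Rfx5 at 20.2 against 17.8. The ratios of this list stayed within 1.5-fold where those of the mitotic list were many-fold.

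The cDC1 genes were mostly within 1.5-fold of MP but leaned lower. Of 22 measured, 0 were higher and 3 lower at 1.5-fold, beside 4.32% of all genes lower. Their median was −0.36, against 0.06 for all genes, and 20 of the 22 had a log2 ratio below 0. Summed, the list was at 5324 CPM against 7377 in MP. Xcr1, the receptor for XCL1, was at 236 against 295 CPM, Clec9a, the receptor for exposed actin of dead cells, at 200 against 255, and Batf3 at 195 against 221. Irf8 was at 921 against 1311 CPM, Naaa at 404 against 403 and the adhesion protein Cadm1 at 200 against 216. The 3 lower genes were the chemokine Cxcl9, the sorting nexin Snx22 at 87.1 against 175 CPM (2.01-fold lower, 1.83 to 2.22) and the lysosomal thioesterase Ppt1 at 639 against 1146 (1.79-fold lower). The DNA-digesting enzyme Dnase1l3, counted with the lysosomal list, was at 262 against 473 CPM, 1.80-fold lower (1.71 to 1.91). Zbtb46, a factor of conventional dendritic cells, was at 22.7 against 29.3 CPM.

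Serpinb8, an intracellular serine protease inhibitor, stood apart from both neighbours. It was listed beforehand as a marker of these cells, with earlier results of these data known. Its excess and the intervals below therefore describe that choice. Serpinb8 was at 93.3 CPM (85.5 to 102) against 17.5 in MP, 10.1 in bone marrow DCP and 5.70 in the other spleen dividing cells. That is 5.35-fold over MP (4.61 to 6.21) and 9.24-fold over bone marrow DCP (6.59 to 13.3). It was found in 196 of the 332 cells, with at most 13 UMIs in a cell, and in 27.9%, 5.87% and 3.48% of thinned cells of the set, MP and bone marrow DCP. Within the set it was at 121 CPM in DCP and 32.2 in HSC-3, so it followed the cluster as the G2 genes did.

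The receptors Flt3 and Kit were closer to MP than to bone marrow DCP. Flt3 was at 171 CPM against 183 in MP and 350 in bone marrow DCP, and Kit, the c-Kit receptor used in the sort, at 151, 189 and 280 CPM. Ly6a, which encodes Sca1, was at 86.0, 144 and 60.3 CPM, 1.67-fold lower than in MP (1.51 to 1.85), and at 106 CPM in DCP against 43.0 in HSC-3 cells of the set. Mycl, the MYC paralogue of cDC1, was at 98.4 against 150 CPM and Myc at 10.4 against 7.76. Of 18 measured dendritic progenitor factors and growth factor receptors, 1, Mycl, was 1.5-fold lower than in MP and 0 higher.

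Interferon-response genes were lower than in MP. Of 20 measured, 8 were lower and 1 higher at 1.5-fold, with a median of −0.47, beside 4.32% of all genes lower. Iigp1, an immunity-related GTPase, was at 3.36 against 24.4 CPM, 7.26-fold lower (4.59 to 12.2). The guanylate-binding proteins Gbp4 and Gbp2 were at 5.49 against 29.1 and 4.96 against 23.3 CPM. The transcription factor Irf1 was at 44.4 against 86.6 CPM, whereas Irf9 was at 105 against 96.1 and Mx1 at 41.1 against 37.0. Ifi27l2a was higher, at 114 against 63.4 CPM. Iigp1, Gbp2, Gbp4 and Irf1 are known as genes that interferon gamma induces.

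Cxcl9, a chemokine induced by interferon gamma that draws T cells through CXCR3, was at 99.8 CPM against 406, 4.07-fold lower (3.73 to 4.44). It was found in 82 of the 332 cells, with 64 of its 564 UMIs in 1 cell, and in 11.8% of thinned cells against 29.9% of MP. Both the share of cells and the summed level were lower, and bone marrow DCP had 0 UMIs of it. Slfn5, another interferon-inducible gene, was at 59.7 against 223 CPM, 3.74-fold lower (3.35 to 4.2).

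The 12 lowest genes against MP were Egr1, Cxcl9, Slfn5, Ccnd1, Aldoa, Adam8, Bcl2l14, Pbxip1, Trib1, Neurl3, Ltb and Nfkbia, from −2.04 to −1.08 on the log2 scale. Egr1, an immediate-early zinc finger factor, was at 22.8 CPM against 97.1 in MP and 145 in bone marrow DCP, 4.25-fold lower than in MP (3.55 to 5.13). Nfkbia, the NF-κB inhibitor that NF-κB itself induces, was at 154 against 326 CPM (2.12-fold lower, 1.97 to 2.28), and Atf3 at 14.3 against 46.3 (3.23-fold lower). Both spleen groups shared 1 library and 1 sort.

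Of 15 dendritic maturation genes, 8 were lower and 1 higher (median −0.60), the NF-κB subunit Relb being at 15.9 against 29.6 CPM and the activation marker Cd83 at 31.9 against 50.4. The costimulatory ligand Cd86 was at 106 against 101 CPM, and the adaptor Samsn1 was higher at 64.1 against 36.1. Of 16 survival and death genes, 6 were lower and 1, the mitotic survivin gene Birc5, higher. The pro-apoptotic BH3 genes Bbc3 and Bcl2l11 were at 9.21 against 27.9 (3.03-fold lower) and 47.4 against 93.9 CPM, and the anti-apoptotic Bcl2a1b at 79.1 against 143. Genes on both sides of the apoptotic balance were therefore lower. Aldoa, a glycolytic aldolase, was at 52.2 against 146 CPM, while the median of 14 glycolysis genes was −0.02.

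**Figure D3:**
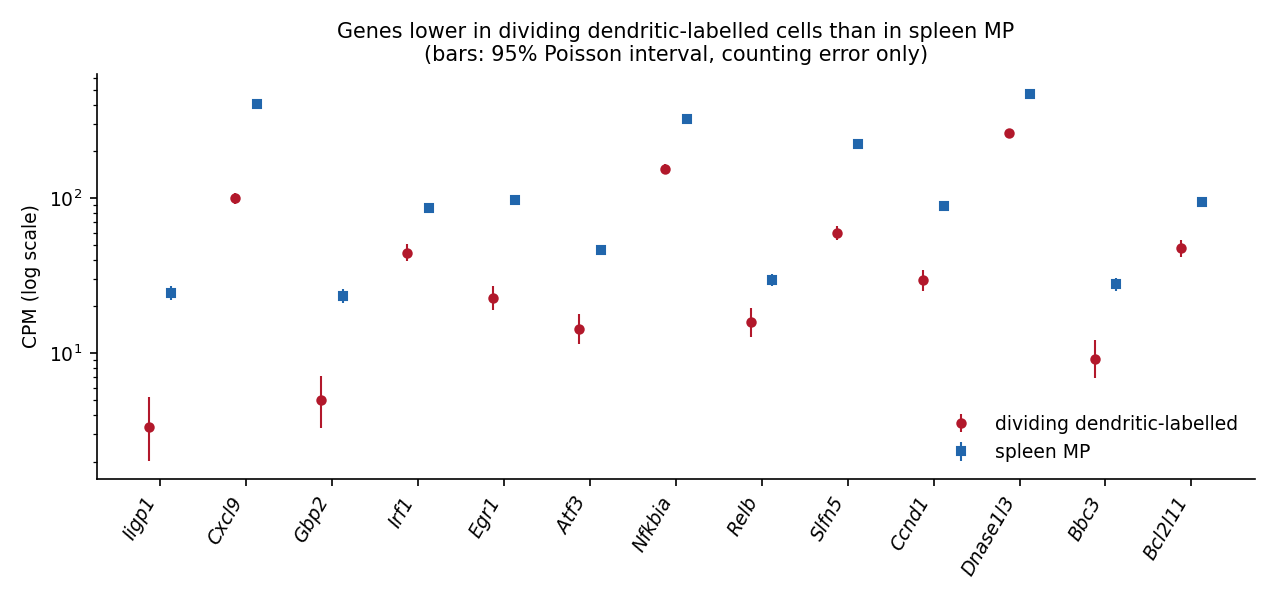
CPM (log scale) of 13 genes lower in dividing dendritic-labelled cells (circles) than in spleen MP (squares), with 95% Poisson intervals for counting error only. The genes were picked as lower, from Iigp1 (3.36 against 24.4 CPM) to Dnase1l3 (262 against 473 CPM), so their separate intervals describe the choice. Of all 7501 genes, 324 (4.32%) were at least 1.5-fold lower.

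The count of lower genes depended on settings, as the next values show. It was 61 as described, 103 with thinned cells, 96 and 114 with the DCP or the HSC-3 cells alone, and 29 with 5 CPM added in place of 1.

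Against bone marrow DCP, these cells differed by the dendritic program and by stem and granulocyte genes. Of the set, 231 cells share that cluster and 101 are of HSC-3. Of 8377 genes, 766 (9.14%) were higher by 2-fold or more and 1718 (20.5%) lower, and at 1.5-fold 1304 (15.6%) and 3048 (36.4%), with a median log2 ratio of −0.32. The MHC class II list took 43907 CPM in these cells and 444 in bone marrow DCP. The split of higher and lower genes depended on the scaling, and the cause of this was not tested. With TMM scaling 1346 were higher by 2-fold or more and 991 lower, the median was 0.12, and at 1.5-fold 2358 were higher and 1646 lower. The median shift is therefore given here once, and list medians are read against −0.32.

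Of 12 MHC class II genes, 10 were higher and 0 lower than in bone marrow DCP (median 4.57). Cd74, H2-Eb1 and H2-Aa led all genes, at 10.73, 9.98 and 9.76 on the log2 scale. Cd74 was at 16514 against 8.69 CPM, 1899-fold higher (1338 to 2796), and H2-Aa at 9109 against 9.54, 955-fold higher (683 to 1379). Ciita was at 363 against 1.12 CPM, from 4 UMIs in bone marrow DCP, 323-fold higher (126 to 1188). Rfx5, at 20.2 against 28.3 CPM, and Rfxap, at 49.4 against 47.4, factors that bind the X box, did not share this difference. The higher genes were thus Ciita and the other measured genes of the list. What set the difference was not tested, and the dendritic label was itself drawn from expression.

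Of 22 cDC1 genes, 21 were higher and 0 lower (median 5.85). Xcr1 and Cd8a, a surface chain of spleen cDC1, had 0 UMIs in bone marrow DCP, so at 236 and 109 CPM they were at least 280-fold and at least 130-fold higher. Clec9a was at 200 against 0.280 CPM from 1 UMI, a 713-fold ratio (128 to 28171). Irf8 was at 921 against 31.1 CPM and Id2, which opposes lymphoid and plasmacytoid fates, at 903 against 21.0. Cd24a was the exception, at 156 against 204 CPM. Of 22 cathepsin and lysosomal genes 16 were higher and 4 lower, and of 9 Toll-like and pattern receptors 8 were higher, among them Tlr3, a sensor of double-stranded RNA, at 99.0 against 0.841 CPM. Dnase1l3 and Mycl had 0 UMIs in bone marrow DCP and were at least 311-fold and at least 117-fold higher.

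Stem cell genes were lower throughout, 21 of 21 with a median of −4.46 (20 of 21 at 1.5-fold with TMM scaling). Hlf, a stem cell transcription factor, was at 4.43 against 450 CPM, 102-fold lower (68.6 to 158), and Ctla2a at 16.1 against 1055. The adhesion receptor Adgrl4 was at 5.13 against 556 CPM, 108-fold lower (75.2 to 162). Of 9 granulocyte and monocyte progenitor genes 8 were lower. Mpo, myeloperoxidase, was at 3.19 against 216 CPM, 67.8-fold lower (42.6 to 115), and the granule protease gene Prtn3 at 7.61 against 559. Cd34, a progenitor surface protein, was at 9.38 against 450 CPM.

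The mitotic program was near that of bone marrow DCP. Of 37 mitosis and spindle genes, 1 was higher and 8 lower, with a median of −0.42 against −0.32 for all genes; with TMM scaling 6 were higher and 2 lower, with a median of 0.02. Mxd3, a MAX-binding repressor, was the higher one, at 36.5 against 12.6 CPM, and Ect2, the cytokinesis exchange factor, the lowest, at 55.2 against 134. Of 30 DNA replication genes 4 were higher and 8 lower, and this also turned with TMM scaling to 8 and 2. Histones were higher under each scaling, 14 of 18 with 3 lower (14 and 1 with TMM). Summed, they were at 724 CPM in the DCP cells of the set, 9955 in its HSC-3 cells and 1621 in bone marrow DCP. The excess over bone marrow DCP thus lay in the HSC-3 cells, and the DCP cells of the set were lower. Of 21 ribosome biogenesis genes, 10 were lower and 2 higher (median −0.58), beside 36.4% and 15.6% of all genes. With TMM scaling 5 were higher and 3 lower, beside 2358 and 1646 of 8328 genes.

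**Figure D4:**
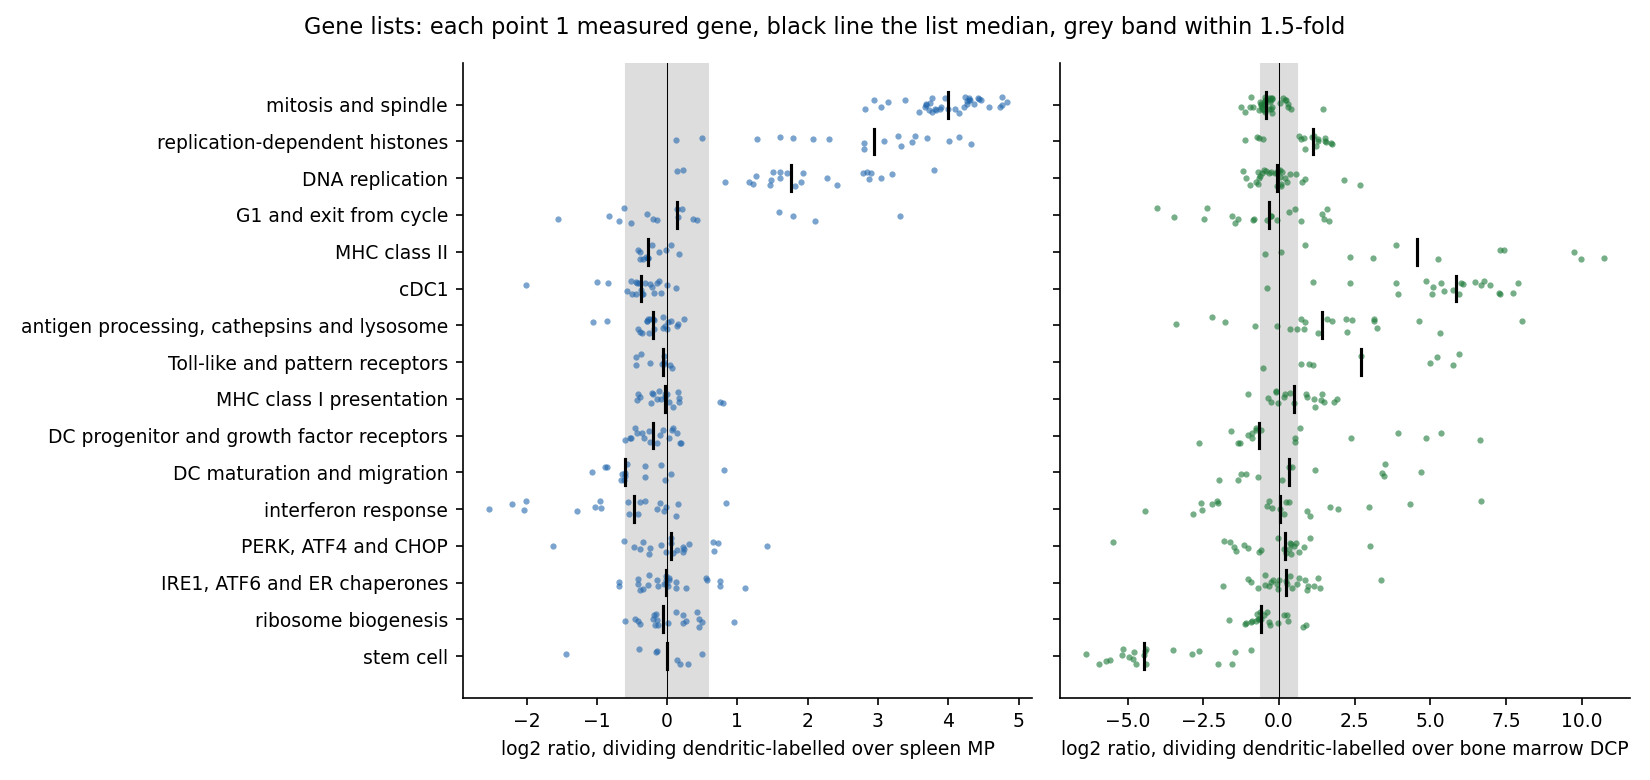
Log2 ratio (x) of each measured gene of 16 gene lists in dividing dendritic-labelled cells over spleen MP (left) and over bone marrow DCP (right), with the list median as a black line and a grey band for ratios within 1.5-fold. Mitosis genes lie at a median of 3.99 on the left and −0.42 on the right, and MHC class II genes at −0.27 and 4.57.

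The other spleen cells of the same 2 clusters shared cycle genes with the set and lacked its dendritic genes. Of 8225 genes, 1328 (16.1%) were at least 1.5-fold higher in the dividing dendritic-labelled cells and 2710 (32.9%) lower, with a median of −0.28. MHC class II genes were higher for 10 of 12 and cDC1 genes for 21 of 22 (medians 4 and 4.50), as the labels imply. Cd74 was at 16514 against 383 CPM. Of the mitosis list 11 of 37 were higher and 2 lower, with Ube2c at 823 against 360 and Cenpf at 826 against 473 CPM. DNA replication genes were lower for 32 of 32 (median −1.59) and histones for 18 of 19 (median −1.52), Hist1h1b being at 822 against 2073 CPM. Ribosome biogenesis genes were lower for 18 of 22. The groups also differed in cluster, with 231 of the 332 cells of the set in DCP against 71 of the 388 others, and the part of that in these differences was not tested.

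Within the set, DCP and HSC-3 cells differed by S phase genes and little by dendritic genes. Of 7562 genes, 563 (7.45%) were at least 1.5-fold higher in DCP cells and 710 (9.39%) lower. All 30 measured DNA replication genes (median −1.96) and all 19 histones (median −3.89) were lower in DCP cells, and summed histones were at 724 CPM in DCP against 9955 in HSC-3. Hist1h2ab was at 7.73 against 320 CPM, 41.4-fold higher in HSC-3 (28.7 to 61.9), Hist1h1b at 142 against 2313 (16.3-fold, 14.9 to 17.8) and Rrm2 at 6.96 against 110. Per thinned cell, histone UMIs ran from 0 to 19 in DCP (median 2) and from 15 to 81 in HSC-3 (median 44). At 20 histone UMIs, 0 of 230 DCP cells and 98 of 100 HSC-3 cells lay at or above, so the cells fell into nearly separate groups, as they were clustered.

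Mitotic genes leaned the other way. Of 37, 17 were higher in DCP and 3 in HSC-3 (median 0.52). Cenpf was at 1058 CPM in DCP and 314 in HSC-3, Ube2c at 1039 and 348, Cdc20 at 351 and 88.8 and Ccnb1 at 256 and 67.9, while Mki67 was at 1050 and 1018 and Top2a, the DNA-untangling topoisomerase, at 573 and 899. Thinned mitotic UMIs overlapped widely, from 11 to 102 in DCP (median 50) and from 12 to 95 in HSC-3 (median 32.5). Genes known to peak late in G2 and M were thus higher in DCP cells, and genes of S phase in HSC-3 cells.

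The dendritic genes of both groups were close. Of 12 MHC class II genes 1 was higher in DCP and 0 lower, and of 22 cDC1 genes 2 were higher and 2 lower (medians 0.18 and 0.18). Cd74 was at 17316 CPM in DCP and 14755 in HSC-3, H2-Aa at 9411 and 8446, and Xcr1 at 254 and 195. Thinned MHC class II UMIs ran from 76 to 312 and from 77 to 271. Id2 was lower in DCP, at 772 against 1190 CPM. Of 14 interferon-response genes 7 were higher in DCP and 0 lower (median 0.59), with Ifi27l2a at 154 against 26.6 CPM. Of 17 DNA damage genes 11 were lower in DCP, with the repair gene Brca1 at 8.25 against 61.6 CPM.

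**Figure D5:**
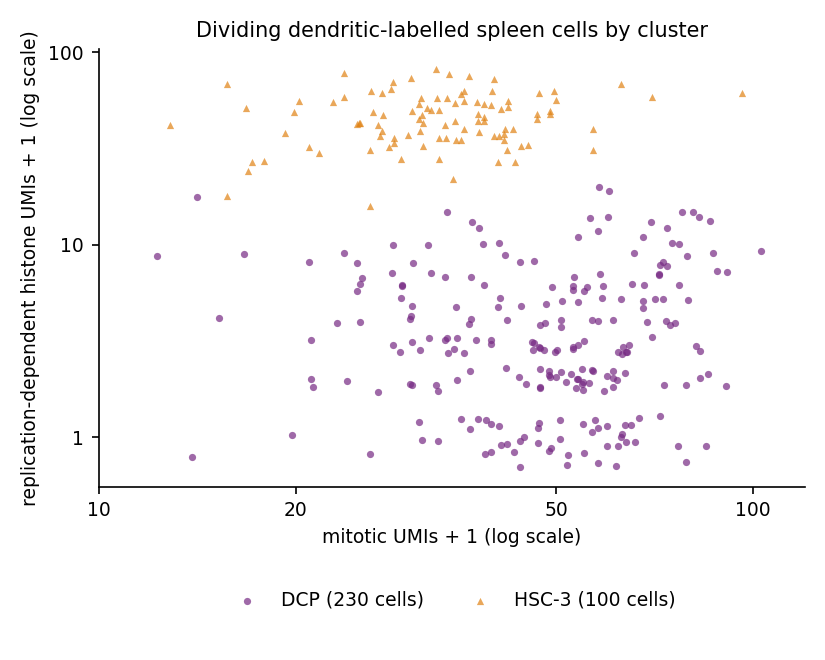
UMIs of the mitosis and spindle list (x, + 1, log scale) and of replication-dependent histones (y, + 1, log scale) in each dividing dendritic-labelled cell thinned to 4400 UMIs, with points jittered slightly, for 230 DCP cells (circles) and 100 HSC-3 cells (triangles). Histone UMIs run from 0 to 19 in DCP and from 15 to 81 in HSC-3, while mitotic UMIs overlap.

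The 48 cells labelled dividing dendritic and the 282 labelled Cst3-high had Cenpf at 784 and 834 CPM, Mki67 at 1240 and 1002, Cd74 at 15485 and 16773, and Xcr1 at 249 and 234. Their median mitotic UMIs per thinned cell were 42.5 and 41.5 and their median MHC class II UMIs 187.5 and 199. At least 5 histone UMIs were found in 75% and 45%, and 28 of the 48 against 71 of the 282 lay in HSC-3. Both labels were taken only from the 2 clusters rich in mitotic transcripts, so their like mitotic amounts describe the choice of cells.

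The study names PERK, a sensor of endoplasmic reticulum stress encoded by Eif2ak3, whose arm of the stress response runs through Atf4 and Ddit3 (CHOP). Eif2ak3 was at 16.1 CPM (13 to 19.8) in the dividing dendritic-labelled cells, 15.1 in MP and 13.5 in bone marrow DCP. Atf4 was at 115, 105 and 176 CPM and Ddit3 at 7.97, 9.18 and 30.9 CPM. Of 21 PERK-arm genes, 4 were higher and 2 lower than in MP (median 0.05), with Psat1, of serine synthesis, at 20.4 against 6.98 CPM and Atf3 lowest. Against bone marrow DCP 4 of 22 were higher and 9 lower (median 0.21), beside 15.6% and 36.4% of all genes. With TMM scaling 12 were higher and 7 lower, beside 2358 and 1646 of 8328 genes.

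The other arms of the response were read the same way. Of 25 IRE1, ATF6 and chaperone genes 3 were higher and 2 lower than in MP (median −0.01), with Xbp1 at 69.9 against 68.5 CPM, the chaperone Hspa5 at 278 against 352 and Hsp90b1 at 355 against 210. Against bone marrow DCP 9 were higher and 4 lower (median 0.24; 13 and 2 with TMM scaling), led by the chaperone cofactor Sdf2l1 at 49.7 against 3.93 CPM. The authors' deposited ER stress score had a median of 0.128 in these cells, 0.138 in MP and 0.071 in bone marrow DCP. Beside these counts, 11.5% of all genes were higher and 4.32% lower against MP at 1.5-fold. Against bone marrow DCP these shares were 15.6% and 36.4%.

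Of the authors' other deposited scores, the stemness score had a median of 0.202 in these cells, 0.119 in MP and 0.001 in bone marrow DCP. It was 0.291 in the other spleen dividing cells and 1.092 in spleen MEP. Within the set it was 0.165 in DCP cells and 0.294 in HSC-3 cells. Against bone marrow DCP the score ran opposite to the stem cell list, which summed to 621 CPM in these cells and 6003 in bone marrow DCP. The myeloid score, at 0.338, lay between 0.421 in MP and 0.015 in bone marrow DCP. Their pseudotime was given for the 231 DCP cells alone, from 9.755 to 13.106 with a median of 11.781, below 11.998 in bone marrow DCP and 15.715 in MP. The HSC-3 cells of the set had no pseudotime. How the scores were made is not stated in the sources used here, so their differences are described only.

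A second contrast within the same library set 43 spleen cells of DCP and HSC-3 labelled T cell against all 693 cells of the authors' cluster LP. LP was not limited to T-labelled cells, and 25 of its cells carried a dendritic label. Summed MHC class II genes were at 569 CPM in the T-labelled cells against 2959 in LP, so the groups differed in more than division. Of 8305 genes, 1052 (12.7%) were at least 1.5-fold higher and 1208 (14.5%) lower. All 37 mitosis genes and all 32 DNA replication genes were higher there (medians 3.85 and 1.83). Egr1, at 15.6 against 33.9 CPM, was 2.17-fold lower (1.12 to 4.81) and Iigp1, at 8.67 against 35.7, 4.12-fold lower (1.74 to 12.8), beside 4.25-fold and 7.26-fold in the dendritic-labelled comparison. Nfkbia was at 210 against 182 CPM and Irf1 at 93.7 against 99.4, where the dendritic-labelled cells had 2.12-fold less Nfkbia and 44.4 against 86.6 CPM of Irf1. Serpinb8 had 0 UMIs in the T-labelled cells and was at 1.69 CPM in LP. The 2 contrasts share no cells, and the difference between them was not tested.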

How the data were processed

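UMI counts and a cell table were analysed for the 2 libraries (1 per tissue). The deposited files hold raw UMI counts of 31053 genes per cell. Per the series design text and the submitters' processing notes, the authors counted with Cell Ranger 3.1.0 at about 27000 reads per cell and used Seurat 3.1.5; the notes give mm9 and the design text mm10, so no coordinates were taken from the counts. The authors' deposited cell table gives clusters, reference labels and per-cell score columns (stemness, myeloid, erythroid, ER stress and pseudotime) whose making is not stated. The deposited integrated values were not used, since they are not counts. Filters on cells and doublets are not stated in the sources used here. The labels name a bead step before the sort without tying it to a tissue.

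All deposited cells were kept, also those marked by Scrublet. UMIs were summed per group and scaled to CPM, with exact Poisson, exact conditional ratio and Clopper-Pearson intervals (95%) for counting error only. A log2 ratio used CPM + 1 where the mean of both sums reached 10 CPM; a gene counted at 2-fold, a list member at 1.5-fold. A count of 0 was read as allowing 3 UMIs. Cells were thinned to 4400 UMIs, the lowest 10th percentile of the compared groups rounded down. Tools were Python 3.11.15, numpy 2.4.6, scipy 1.17.1, scanpy 1.11.5 and TMM factors of edgeR 4.0.16 (R 4.3.3) as an alternative. Scripts were tested on simulated data.

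Named genes are the 12 highest and 12 lowest log2 ratios against MP and bone marrow DCP at 50 CPM or more, the 2 highest and 2 lowest of each described list, and a fixed set of 35; some genes are not reported here. Other list genes, the values of single cells and the T-labelled comparison's genes were chosen after values were seen. The members, the 35 gene lists and the tests were chosen with earlier results of these data known.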

Additional observations from a re-analysis of the deposited data

How the results depend on the processing

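Libraries are not replicated, so the alternatives change cells, scaling or limits. Against spleen MP, 469 genes higher and 61 lower became 727 and 227 with no filter on low values. The lower genes became 29 with 5 CPM added, 103 with thinned cells, 96 with the DCP members alone, 114 with the HSC-3 members alone, 150 with the 48 members labelled dividing, and 121 with the 88 members without a UMI of other types. Against bone marrow DCP, 766 higher and 1718 lower became 1346 and 991 with TMM scaling, 1279 and 3564 with no filter, and 1140 lower after centring on the median gene, so TMM scaling turned the balance of higher against lower genes. The cause was not tested, apart from the filter, which admits more genes. S and G2M shares became 2.12% and 97.6% with the lists used here. Without cells marked by Scrublet, 463 genes were higher than in MP and 74 lower. Without the 5 members with many UMIs of another type, and without shared barcodes, both chosen after seeing the data, these were 465 and 68, and 467 and 58. Co-detection stayed at 99.7% to 100% under its alternatives, which the choice of cells by cluster and label had largely set beforehand. Single genes were followed for 28 genes of the fixed set against MP and 30 against bone marrow DCP. Of their values, 337 of 448 against MP and 346 of 450 against bone marrow DCP stayed within the counting interval. Among genes with a ratio of 2-fold or more, 0 changed sign. Changes of sign at smaller ratios were not counted.

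No paired analysis was possible because each tissue has 1 library. Counts of few UMIs limit the Clec9a and Ciita ratios against bone marrow DCP, whose intervals are wide.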
